A study of Mus musculus with 75 samples.

Results

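Liver RNA was compared between aged mice of 22 months and young mice of 3 months. All mice were untreated wild-type C57BL/6 mice, a standard inbred laboratory strain, and each liver was taken after perfusion of the animal with PBS and frozen. The livers were chosen by tissue and age from the labels, and 5 of the 75 samples of the series belong to them: 2 aged livers, from aged mice 1 and 3, and 3 young livers, from young mice 1, 2 and 3. Each library came from a separate animal, and the liver of aged mouse 2 was not analysed here. The labels give no sex; Xist, the transcript that coats the inactive X chromosome, ranged from 74.8 to 91.9 over the 5 livers, and the Y-linked gene Ddx3y reached at most 1.06. Depth was estimated at 734081 to 1134770 read equivalents per library, with 12927 to 15341 genes above 0. The estimate is the summed value of 1 transcript per gene, divided by the value taken as 1 read. It is not a count of sequenced reads. Values are the deposited signal, that is weighted reads per RefSeq transcript scaled per library, in which 1 read was worth 0.66 to 1.49. The label was borne out by Alb (NM_009654), the gene of serum albumin, which was at 56623 and 60122 in aged livers 1 and 3, against 86607, 27829 and 85553 in young livers 1, 2 and 3. Alb was lower in young liver 2 than in the other 4 livers.

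Hepatocytes, the main cells of the liver, make most plasma proteins, store and release glucose, build and burn fat, turn ammonia into urea, and produce bile acids from cholesterol. They clear drugs and steroids in successive steps: transporters take the compound up, cytochromes P450 and other phase I enzymes oxidise or hydrolyse it, and phase II enzymes join it to sulfate, glucuronic acid or glutathione. Many of these genes differ between the sexes in mice, under the control of the pulses of growth hormone. In inflammation hepatocytes raise acute phase proteins such as serum amyloid A. Kupffer cells are the resident macrophages of the sinusoids, and stellate cells store vitamin A and, once activated, lay down matrix.

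Young livers 1 and 2 carried transcripts of another organ, lung in the first and thymus in the second. Thymocyte markers, such as the recombinase genes Rag1 and Rag2, summed to 224 and 235 in aged livers 1 and 3, against 243, 4919 and 255 in young livers 1, 2 and 3. A fit of each library by the mean profiles of the 11 tissues gave young liver 2 a thymus share of 32.3% and a liver share of 67.7%, and 12 thymus genes stood in it at 34.2% to 79.3% of their mean level in thymus. Lung markers summed to 42.5 and 127 in aged livers 1 and 3, against 6202, 68.2 and 59.2 in young livers 1, 2 and 3, and the fitted lung share of young liver 1 was 1.33%. The club cell gene Scgb1a1 was at 4178 in young liver 1 and at most at 69.2 in the other 4 livers. Aged livers 1 and 3 were fitted at 90.2% and 94.0% liver, with the largest other shares from mesenteric lymph nodes (3.41%) and colon (1.89%), and young liver 3 as liver alone. Across 6 lung genes, young liver 1 held 6.42% to 8.59% of the mean level in lung, with a median of 7.39%. Hepatocyte identity genes, the plasma proteins and transcription factors that mark these cells, were lowest in young liver 2: they summed to 168445 and 178984 in aged livers 1 and 3, against 211403, 75310.3 and 229917 in young livers 1, 2 and 3.

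**Figure D1:**
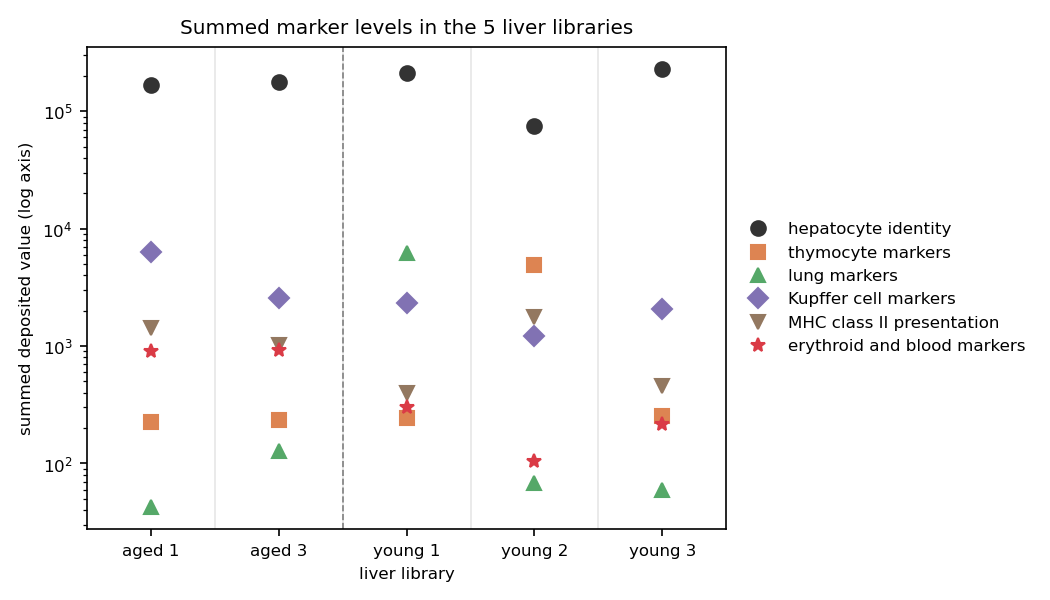
Summed deposited values of 6 marker lists (log axis) in aged livers 1 and 3 and young livers 1, 2 and 3. Thymocyte markers stand at 4919 in young liver 2 and at most at 255 in the other libraries, and lung markers at 6202 in young liver 1 and at most at 127 elsewhere.

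Each comparison was therefore made with all 5 livers and without young mouse 2. In the fit of 5 livers, 1 gene was called higher in aged liver (0.0101% of 9941 tested genes) and 1 lower (0.0101%), together 0.0201%, at an adjusted p under 0.05 by limma with Benjamini-Hochberg adjustment; 436 genes (4.39%) had an unadjusted p under 0.05. Without young mouse 2, 43 genes were called higher (0.433%) and 54 lower (0.543%), and both genes of the first fit were among these 97. All 97 kept their direction in the fit of 5 livers, which holds the same 4 livers, so this was largely fixed in advance. The aged livers did not overlap the young livers in 77 of the 97 genes over 5 livers, where 18.9% of all tested genes did not overlap, 11.3% with aged above young and 7.6% below. Over the 4 livers without young mouse 2 none of the 97 overlapped, and 37.2% of all tested genes did not. A call on these same 4 livers nearly requires this, so it adds no support. These counts depended on the model: without young mouse 2, no gene was called when no filter on low values was used, 0 genes higher and 1 lower without a mean-variance trend, and 3 higher and 6 lower with the smallest deposited value as pseudocount, whereas voom called 32 and 46. With 1 further liver left out in turn, 48 of the 97 were called each time, and 65 to 77 in single cases. The median log2 difference over all tested genes was 0.095 with young mouse 2 and -0.0021 without it. Without young mouse 2, 824 genes (8.29%) had an unadjusted p under 0.05 by limma. Later counts of list members at that level are to be read against this share. In what follows, "called" refers to the 4 livers without young mouse 2 unless another fit is named, log2 differences are aged minus young on the scale log2(value + 0.981), and young liver 2 is printed beside the others.

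A second treatment kept young mouse 2 for the genes that thymus hardly expresses. For 928 genes with a thymus level under 5% of the liver level, young liver 2 stood at a median of 0.339 of the other young livers, and its values were divided by that ratio. In such genes, an aged liver above young liver 2 as deposited therefore says little about age. This ratio is lower than the fitted liver share of 67.7%; the measures differ, and the rescaled values depend on which is used. On this rescaled library 87 of the 928 genes were called (9.38%), 25 higher in aged liver (2.69%) and 62 lower (6.68%). Of the 97 genes above, 56 were among the 928. Rescaled young liver 2 lay on the young side of both aged livers in all 56 of them, and 53 were called again. The rescaling set young liver 2 to the median level of the other young livers. The refit also used the libraries that gave the 56 genes, so neither count is an independent check. A further 34 genes were called only with the rescaled library. For them too, young liver 2 was first set to the young median level and then counted as a young replicate. These calls, adjusted over the 928 genes only, are therefore no independent support either.

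**Figure D2:**
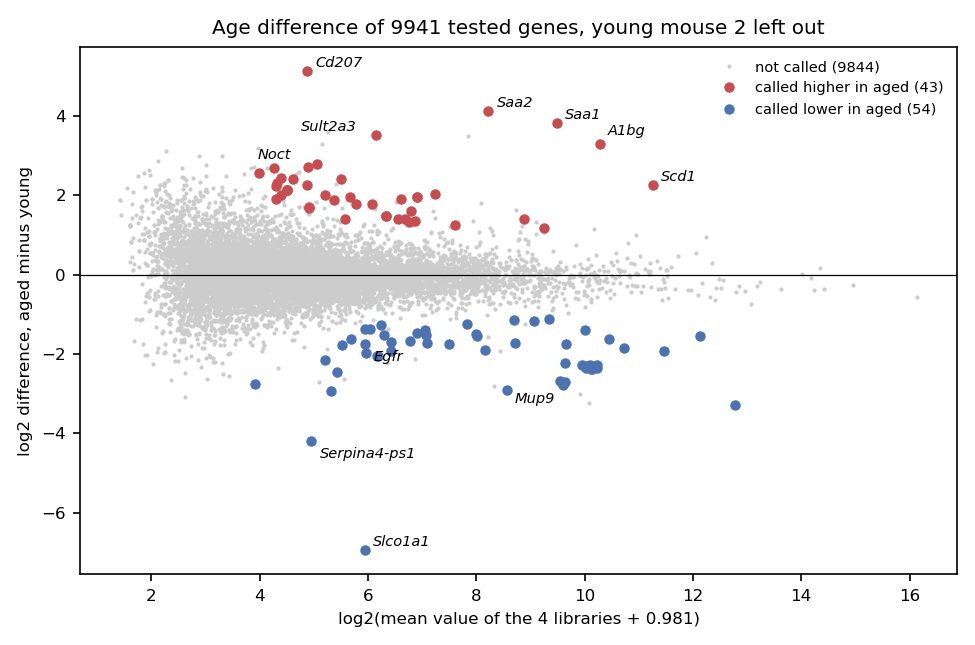
Log2 difference of aged minus young liver against the log2 mean value of the 4 livers without young mouse 2, for 9941 tested genes (points). The 43 genes called higher in aged liver and the 54 called lower are coloured, and Slco1a1 and Cd207 lie farthest from 0.

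Slco1a1 (NM_013797), a transporter that takes bile acids, steroid conjugates and drugs up from blood into hepatocytes, fell in the aged livers, with all 5 livers and without young mouse 2. It was listed at 0 in both aged livers, against 101, 40.3 and 141 in young livers 1, 2 and 3, so no read was seen in either aged liver. Young liver 2 stood at 119 after rescaling, between the other young livers. The adjusted p was 0.0018 in 5 livers, 5.0e-10 without young mouse 2 and 8.3e-07 with the rescaled library (limma); no fold is given against a group listed at 0. Among 20 tested genes of bile acid synthesis and transport it was the only one called, where 0.543% of all tested genes were called lower. The list's median log2 difference was -0.52, against -0.0021 over all tested genes. An unadjusted p under 0.05 by limma was reached by 9 of the 20, where 8.29% of all tested genes reached it. Cyp7a1, the rate-limiting enzyme of bile acid synthesis, was at 140.3 and 61.6 in aged livers 1 and 3, against 62.4, 21.1 and 69.96 in young livers 1, 2 and 3, with overlapping groups and an adjusted p of 0.82. Cyp8b1, the sterol 12-alpha-hydroxylase that sets the share of cholic acid, was at 183 and 86.2 in the aged livers against 198, 143 and 321 in the young livers, with an adjusted p of 0.38.

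Of 17 tested genes known to be higher in male than in female mouse liver, 8 fell in the aged livers, where 0.543% of all tested genes fell, and none was called higher. The list's median log2 difference was -1.93 (-1.42 with young mouse 2, -1.94 over the 15 rescaled genes). Slco1a1 is one of the 8. Another 6 are major urinary proteins, small carriers of pheromones that the liver secretes into blood and that pass into urine. Mup11 (NM_001164526) was at 168 and 227 in aged livers 1 and 3, against 1196, 608 and 1500.3 in young livers 1, 2 and 3, a log2 difference of -2.77 (SE 0.28) with an adjusted p of 5.6e-08 (limma, 4 livers) and 0.55 in 5 livers. Mup1 was at 211 and 355 in the aged livers against 1069.8, 523 and 1537 in the young livers (log2 difference -2.22, SE 0.29, adjusted p = 1.2e-05). Mup20, the pheromone known as darcin, was at 27.8 and 42.2 in the aged livers against 114, 42.5 and 155 in the young livers (log2 difference -1.93, SE 0.32, adjusted p = 2.7e-04, limma). Both aged livers lay below all 3 young livers in these genes, as in 7.6% of all tested genes. For Mup20, however, aged liver 3 was close to young liver 2.

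Mup genes are near-identical copies that share reads, so single copies cannot be told apart and are not independent observations. All 20 tested Mup genes were below 0 in log2 difference, and 17 of them were called lower. Summed over the 20, the level was 4279 and 5948 in aged livers 1 and 3, against 21858, 10379 and 28941 in young livers 1, 2 and 3. The sums of the aged livers were below each of the young livers. The copy Mup9 (NM_001126319) was listed at 88.4 and 86.8 in aged livers 1 and 3, against 672, 348 and 657 in young livers 1, 2 and 3 (log2 difference -2.91, SE 0.28, adjusted p = 2.0e-08). Mup17 and Mup18 had log2 differences of -2.70 and -2.68. Cyp2d9, a testosterone 16-alpha-hydroxylase, was the remaining member of the male-biased list to fall: it was at 20.6 and 34.3 in aged livers 1 and 3, against 99.998, 39.01 and 127 in young livers 1, 2 and 3, 115 in rescaled young liver 2, with a log2 difference of -2.04 (SE 0.33) and an adjusted p of 2.1e-04 (limma). Hsd3b5, a steroid dehydrogenase of male liver, was listed at 0 in both aged livers, against 17.8, 4.62 and 2.74 in young livers 1, 2 and 3; it had an adjusted p of 0.54. Hsd3b3, another enzyme of that family and no member of the list, fell: it was at 45.5 and 57.3 in aged livers 1 and 3, against 145, 76.1 and 185 in young livers 1, 2 and 3 (log2 difference -1.66, SE 0.30, adjusted p = 0.0011, limma). Elovl3, a fatty acid elongase, was at 3.92 and 8.53 in the aged livers against 16.3, 15.2 and 34.3 in the young livers and had an adjusted p of 0.14.

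**Figure D3:**
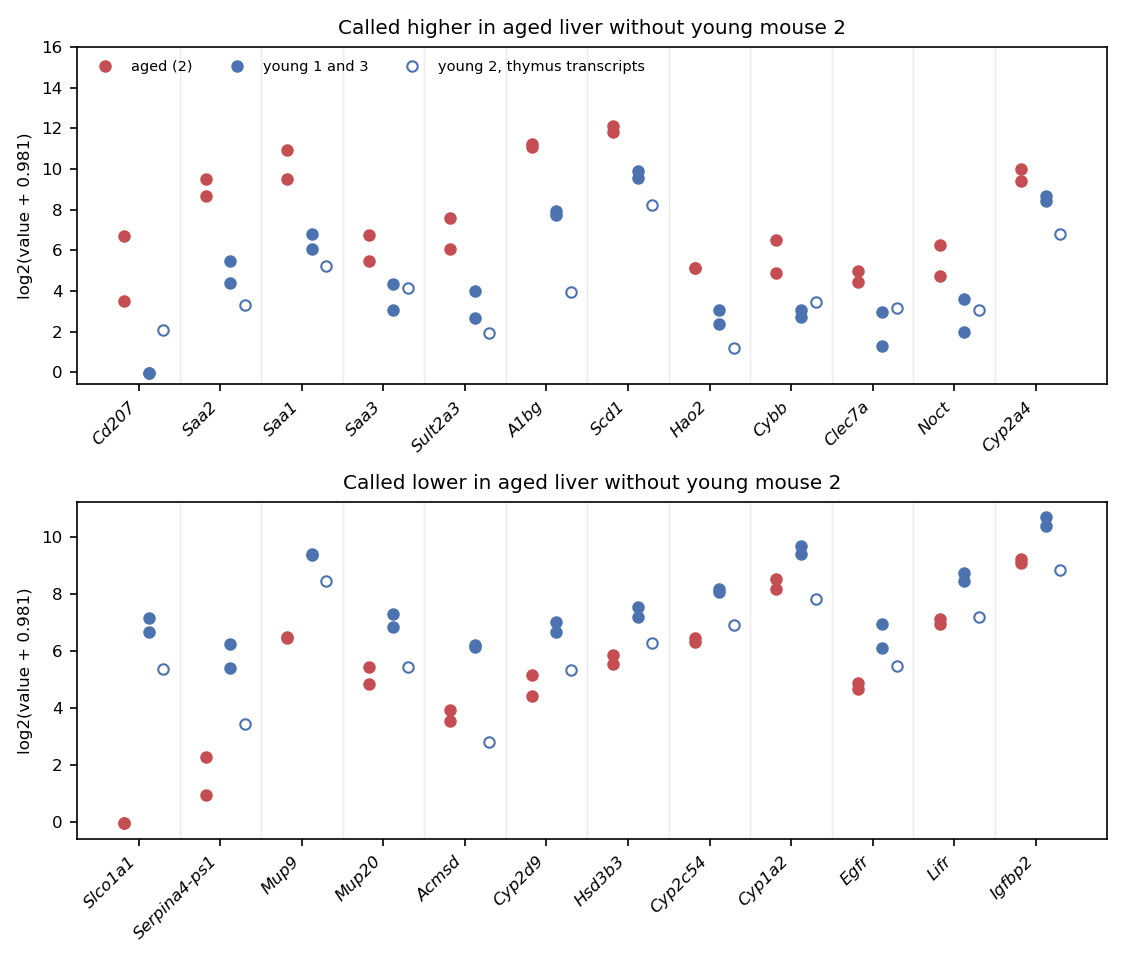
Values on the scale log2(value + 0.981) of 12 genes called higher in aged liver (top) and 12 called lower (bottom) without young mouse 2; filled points are aged livers 1 and 3 and young livers 1 and 3, and open circles are young liver 2 as deposited. Slco1a1 has both aged livers at 0 reads, and A1bg and Scd1 separate the groups at high levels.

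Genes known to be higher in female mouse liver moved in both directions. Of 23 tested, 3 rose in the aged livers and 2 fell, where 0.433% of all tested genes rose and 0.543% fell, with a median log2 difference of 0.43 (0.90 with young mouse 2 and 0.65 over the 19 rescaled genes). A1bg (NM_001081067), which encodes a plasma glycoprotein of the immunoglobulin fold, was at 2154 and 2359 in aged livers 1 and 3, against 211, 14.5 and 246 in young livers 1, 2 and 3. The log2 difference was 3.30 (SE 0.27) and the adjusted p 5.0e-10 (limma, 4 livers), against 0.55 in 5 livers. Young liver 2 was far below the other young livers, at 42.8 even after rescaling, and with it the adjusted p was 0.11. Hao2, a peroxisomal hydroxy acid oxidase, was at 34.3 and 34.1 in aged livers 1 and 3, against 7.43, 1.32 and 4.12 in young livers 1, 2 and 3 (log2 difference 2.43, SE 0.50, adjusted p = 0.0054). Cyp2a4, a testosterone 15-alpha-hydroxylase, was at 683 and 1011 in the aged livers against 340.1, 111 and 402 in the young livers (log2 difference 1.17, SE 0.28, adjusted p = 0.026, limma). Both aged livers exceeded every young liver in all 3 genes, as in 11.3% of all tested genes, and young liver 2 was the lowest library in each. The call of Cyp2a4 (adjusted p 0.24 without aged liver 3, 0.32 without young liver 1 and 0.064 without young liver 3) ended with 1 further liver left out.

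The 2 members that fell were Cyp2c40, an arachidonic acid hydroxylase, and Sult3a1, an amine sulfotransferase. Cyp2c40 was at 395 and 416 in aged livers 1 and 3, against 783, 332 and 995 in young livers 1, 2 and 3, so that young liver 2 lay below the aged livers as deposited and at 978 once rescaled (adjusted p = 0.029 in 4 livers and 0.0027 rescaled, limma). Sult3a1 was at 93.5 and 54.5 in the aged livers against 180.0, 40.8 and 201 in the young livers, with 120.3 in rescaled young liver 2 (adjusted p = 0.011 and 0.037). Cyp3a41a and Cyp3a41b, a near-identical pair of female-biased P450 genes, were not called in 4 livers and were called higher with the rescaled library, where 2.69% of the 928 genes were, with an adjusted p of 0.035 for Cyp3a41a. Cyp3a41a was at 465 and 668 in the aged livers against 239, 77.5 and 379.9 in the young livers. With 1 more liver left out, the threshold was missed by Cyp2c40 (adjusted p 0.069 without aged liver 1, 0.079 without young liver 1 and 0.29 without young liver 3) and Sult3a1 (adjusted p 0.14 without aged liver 3 and 0.061 without young liver 3).

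Among the phase II enzymes, the hydroxysteroid sulfotransferases of the Sult2a cluster held a gene that rose and another that fell. These enzymes add sulfate to bile acids and steroids. Sult2a3 (NM_001101586) was at 65.9 and 194 in aged livers 1 and 3, against 5.33, 2.86 and 14.98 in young livers 1, 2 and 3, a mean of 12.8 times the level of young livers 1 and 3; the log2 difference was 3.51 (SE 0.60) and the adjusted p 0.041 (limma, 4 livers), 0.15 in 5 livers and 9.6e-04 rescaled. Aged liver 3 was higher than aged liver 1, and both exceeded every young liver. Sult2a8, a bile acid sulfotransferase of male-biased expression, fell: it was at 138 and 103 in aged livers 1 and 3, against 392, 178 and 511 in young livers 1, 2 and 3 (log2 difference -1.90, SE 0.28, adjusted p = 7.6e-05). Sult2a1, Sult2a2, Sult2a5 and Sult2a7 were not called in 4 livers. With the rescaled library they were called higher, where 2.69% of the 928 genes were, with adjusted p between 0.013 and 0.024 (limma). Sult2a7 was at 45.1 and 91.9 in aged livers 1 and 3, against 1.49, 0 and 10.97 in young livers 1, 2 and 3, with young liver 2 listed at 0. The copies of this cluster are similar in sequence, so part of their reads may be shared. Over all 28 tested glucuronosyl- and sulfotransferases 1 rose and 2 fell, where 0.433% of all tested genes rose and 0.543% fell. Their median log2 difference was 0.096. The threshold was missed, with 1 liver fewer, by Sult2a3 (adjusted p 0.10 without young liver 1).

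Of 41 tested cytochromes P450 of phase I metabolism, 5 fell and 2 rose in the aged livers, where 0.543% of all tested genes fell and 0.433% rose, and the median log2 difference was -0.28. Beside Cyp2d9 and Cyp2c40, the genes that fell were Cyp2c54, Cyp2c50 and Cyp1a2. Cyp2c54, of the Cyp2c family that oxidises drugs and fatty acids, was at 79.1 and 85.7 in aged livers 1 and 3, against 267, 118 and 286 in young livers 1, 2 and 3 (log2 difference -1.73, SE 0.28, adjusted p = 2.4e-04, limma). Cyp1a2 (NM_009993), which metabolises caffeine and aromatic amines in the cells around the central vein, was at 287 and 368 in aged livers 1 and 3, against 668, 227 and 815 in young livers 1, 2 and 3. Without young mouse 2 its log2 difference was -1.18 (SE 0.27) with an adjusted p of 0.022, and rescaled young liver 2, at 668, was close to young liver 1. As deposited, young liver 2 was the lowest of the 5 livers. Cyp2c50 was at 212 and 306 in the aged livers against 538, 259.8 and 593 in the young livers (log2 difference -1.15, SE 0.28, adjusted p = 0.032). In fits with 1 liver fewer, the call did not hold for Cyp1a2 (adjusted p 0.13 without aged liver 1, 0.070 without young liver 1 and 0.22 without young liver 3) and Cyp2c50 (adjusted p 0.29 without aged liver 1, 0.14 without young liver 1 and 0.19 without young liver 3).

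Cyp2a22, a member of the same subfamily as Cyp2a4, rose beside it: it was at 144 and 162 in aged livers 1 and 3, against 57.2, 14.2 and 63.1 in young livers 1, 2 and 3 (log2 difference 1.33, SE 0.29, adjusted p = 0.012, limma). Cyp2a4 and Cyp2a5 are near-identical copies, and Cyp2a5 was at 436 and 860.0 in the aged livers against 192, 97.8 and 349.8 in the young livers with an adjusted p of 0.19. Cyp3a11, the main drug-metabolising Cyp3a enzyme of mouse liver, was at 189.8 and 402 in aged livers 1 and 3, against 605, 255 and 710.4 in young livers 1, 2 and 3; it missed the threshold in 4 livers with an adjusted p of 0.060 and was called lower with the rescaled library, which stood at 750.4 (adjusted p = 0.016, limma). Cyp2e1, the ethanol-inducible P450, was at 1283 and 3229.6 in the aged livers against 2249, 1097 and 2871 in the young livers, with overlapping groups and an adjusted p of 0.92. Cyp2b10 and Cyp2b9, targets of the xenobiotic receptor CAR, had adjusted p of 0.82 and 0.98. Cyp2b10 was at 20.4 and 68.05 in the aged livers against 58.7, 23.2 and 62.4 in the young livers. Cyp2b9 was at 191 and 364 in the aged livers against 245, 92.8 and 255 in the young livers. In both, aged livers 1 and 3 differed from each other by more than young livers 1 and 3 did. Leaving out 1 further liver ended the call of Cyp2a22 (adjusted p 0.053 without aged liver 3 and 0.10 without young liver 1).

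Carboxylesterases, which hydrolyse drug and lipid esters in the endoplasmic reticulum, held the other phase I enzymes that fell. These were 2 of 31 tested, with a median log2 difference of -0.17, where 0.543% of all tested genes fell. Ces3a was at 334 and 409 in aged livers 1 and 3, against 1329, 532 and 1162 in young livers 1, 2 and 3 (log2 difference -1.75, SE 0.27, adjusted p = 1.0e-04, limma). Ces3b was at 192 and 199.9 in aged livers 1 and 3, against 653, 237 and 642 in young livers 1, 2 and 3 (log2 difference -1.72, SE 0.27, adjusted p = 1.4e-04). In both genes the aged livers lay below all young livers, as in 7.6% of all tested genes. The rescaled library stood at 1567 for Ces3a and 699 for Ces3b. None of 19 tested glutathione transferases of the list was called by limma (unadjusted p under 0.05 in 5, called by voom in 0), and their median was 0.25. Gsta2, the one with the smallest p, was at 40.9 and 58.97 in aged livers 1 and 3, against 15.98, 2.86 and 21.7 in young livers 1, 2 and 3 and had an adjusted p of 0.095. Gstp3, a glutathione transferase that the list did not hold, rose: it was at 50.03 and 76.7 in aged livers 1 and 3, against 10.4, 4.62 and 24.7 in young livers 1, 2 and 3 (log2 difference 1.88, SE 0.40, adjusted p = 0.012). None of 12 other phase II enzymes, 19 drug transporters and xenobiotic receptors or 17 genes of oxidative stress and metals was called, with medians of -0.54, -0.21 and -0.077. An unadjusted p under 0.05 was reached by 6 of the 12, 1 of the 19 and 3 of the 17, where 8.29% of all tested genes reached it, and voom called none of them. The call of Gstp3 (adjusted p 0.12 without aged liver 3 and 0.19 without young liver 1) ended with 1 further liver left out.

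In the acute phase list, the genes that rose in the aged livers were those of serum amyloid A. Saa2 (NM_011314), an apolipoprotein of HDL made by hepatocytes in inflammation, was at 724 and 399 in aged livers 1 and 3, against 20.1, 8.91 and 43.9 in young livers 1, 2 and 3. Its log2 difference was 4.13 (SE 0.38) and its adjusted p 8.7e-06 without young mouse 2 and 0.029 with it (limma). Saa1 (NM_009117), the neighbouring copy, was at 1959 and 730.3 in aged livers 1 and 3, against 64.6, 35.97 and 109.7 in young livers 1, 2 and 3 (log2 difference 3.81, SE 0.50, adjusted p = 0.021 in 4 livers and 0.075 in 5). In both genes aged liver 1 was the highest and each young liver was far below both aged livers. Saa3, the form of macrophages and other non-hepatic cells, was at 43.2 and 108 in aged livers 1 and 3, against 7.43, 16.5 and 19.2 in young livers 1, 2 and 3 (log2 difference 2.41, SE 0.49, adjusted p = 0.025), and here aged liver 3 was the highest. Saa1 and Saa2 are near-identical in sequence and may share reads. With 1 more liver left out, the threshold was missed by Saa3 (adjusted p 0.11 without aged liver 3 and 0.084 without young liver 1).

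The promoters of the 3 Saa genes are shown because these genes rose together. They are taken from RefSeq on GRCm38.p6, 250 bases before to 50 bases after the start of each gene, on the gene's strand, and the capitals mark matches to TTGCNNAA, the core of a C/EBP site, searched on both strands.
Saa1, chr7:46742931-46743230, minus strand: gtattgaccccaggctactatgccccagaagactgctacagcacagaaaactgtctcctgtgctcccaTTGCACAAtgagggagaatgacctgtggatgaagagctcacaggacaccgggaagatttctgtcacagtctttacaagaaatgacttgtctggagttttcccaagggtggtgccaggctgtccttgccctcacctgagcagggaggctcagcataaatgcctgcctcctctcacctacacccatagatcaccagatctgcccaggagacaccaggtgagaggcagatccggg
Saa2, chr7:46751583-46751882, plus strand: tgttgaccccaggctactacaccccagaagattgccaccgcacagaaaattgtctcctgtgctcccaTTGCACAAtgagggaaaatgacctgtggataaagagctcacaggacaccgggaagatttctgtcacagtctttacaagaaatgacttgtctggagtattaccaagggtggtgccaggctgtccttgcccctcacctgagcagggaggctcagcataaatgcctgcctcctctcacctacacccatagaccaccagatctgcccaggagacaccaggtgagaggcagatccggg
Saa3, chr7:46715627-46715926, minus strand: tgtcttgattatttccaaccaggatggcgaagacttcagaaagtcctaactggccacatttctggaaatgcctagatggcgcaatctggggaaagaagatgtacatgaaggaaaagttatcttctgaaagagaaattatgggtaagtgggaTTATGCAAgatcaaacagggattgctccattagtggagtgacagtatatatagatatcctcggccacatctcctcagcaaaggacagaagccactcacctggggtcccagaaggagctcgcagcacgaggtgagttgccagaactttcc
Each of the 3 windows held 1 match, and 10.8% of all 32851 promoter windows in the table held at least 1. Saa1 and Saa2 carry the same 8 letters at nearly the same distance from the start, and Saa3 carries other letters that fit the pattern on the other strand, closer to the start. A match describes these letters only.

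Of the 38 tested positive acute phase genes 3 rose and 1 fell, where 0.433% of all tested genes rose and 0.543% fell. The median log2 difference was 0.028, with 19 genes above 0 and 19 below. Orm1, the gene of alpha-1-acid glycoprotein, was at 2151 and 1347 in aged livers 1 and 3, against 1289, 411 and 1401 in young livers 1, 2 and 3 (adjusted p = 0.84, limma). Hp, the gene of haptoglobin, was at 5619 and 4450.3 in the aged livers against 3029, 910.2 and 3882 in the young livers (adjusted p = 0.56). Aged liver 1 was above every young liver in both genes, and neither was called. Lcn2, which binds bacterial siderophores, was at 226 and 98.5 in the aged livers against 57.96, 16.5 and 67.2 in the young livers; it had an adjusted p of 0.11 in 4 livers and 0.035 with the rescaled library. The member that fell was Serpina3k, a serine protease inhibitor of plasma, at 2003 and 2536 in the aged livers against 5763, 2257 and 7527 in the young livers (log2 difference -1.55, SE 0.26, adjusted p = 2.7e-04), with rescaled young liver 2 at 6651.

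Serpina1e, Mug1 and Serpina4-ps1, genes outside this list, also fell. Serpina1e, a form of alpha-1-antitrypsin that differs among mouse strains, was at 1140.4 and 1114 in aged livers 1 and 3, against 3117, 1986 and 5934 in young livers 1, 2 and 3 (log2 difference -1.93, SE 0.28, adjusted p = 9.1e-05). Mug1, the gene of murinoglobulin, was at 666 and 688 in aged livers 1 and 3, against 1914, 908 and 2304 in young livers 1, 2 and 3 (log2 difference -1.63, SE 0.26, adjusted p = 1.8e-04, limma). Serpina1c and Serpina1d, copies close to Serpina1e that may share its reads, had log2 differences of -0.75 and -0.63 and were not called in 4 livers (adjusted p = 0.25 and 0.43). Serpina4-ps1, annotated as a serpin pseudogene, was at 3.92 and 0.947 in aged livers 1 and 3, against 74.3, 9.90 and 41.2 in young livers 1, 2 and 3 (log2 difference -4.19, SE 0.56, adjusted p = 8.7e-06). None of 11 negative acute phase proteins was called in 4 livers (unadjusted p under 0.05 in 4, called by voom in 0), with a median of -0.36, and Alb itself had a log2 difference of -0.56 (SE 0.22) and an adjusted p of 0.42. Over the 11 genes rescaled, 2 were called lower, where 6.68% of the 928 rescaled genes were. These were Alb with an adjusted p of 0.019 and Igf1 with 0.029 (limma, adjusted over the 928 genes only). Of 35 tested complement and coagulation genes none was called in 4 livers (median -0.19, unadjusted p under 0.05 in 7, called by voom in 0). C8b, a subunit of the membrane attack complex, was at 72.6 and 22.7 in aged livers 1 and 3, against 162, 66.7 and 206 in young livers 1, 2 and 3 and had an adjusted p of 0.15 in 4 livers and 0.0082 rescaled. Aged liver 1 lay above young liver 2 as deposited and below all young livers after rescaling.

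In lipid metabolism, Scd1 rose. Scd1 (NM_009127), the desaturase that makes oleic acid from stearic acid, was at 3604 and 4503 in aged livers 1 and 3, against 947, 296 and 741 in young livers 1, 2 and 3, a mean of 4.81 times the level of young livers 1 and 3. The log2 difference was 2.26 (SE 0.26) with an adjusted p of 1.1e-06 in 4 livers, 0.55 in 5 and 1.5e-05 rescaled (limma). It was the only called gene of 20 tested for fatty acid synthesis, where 0.433% of all tested genes were called higher. Of the 20, 18 had a log2 difference above 0, and the median was 0.64, against -0.0021 over all tested genes. An unadjusted p under 0.05 by limma was reached by 8 of the 20, where 8.29% of all tested genes reached it. Fasn, the fatty acid synthase, was at 358 and 483 in aged livers 1 and 3, against 218, 95.05 and 198 in young livers 1, 2 and 3 and had an adjusted p of 0.092. Pnpla3, a lipid droplet hydrolase induced with lipogenesis, was at 23.5 and 18.9 in aged livers 1 and 3, against 4.46, 1.32 and 4.12 in young livers 1, 2 and 3 (adjusted p = 0.076). Elovl6, which elongates palmitate, was at 77.99 and 80.5 in the aged livers against 42.4, 13.9 and 50.1 in the young livers (adjusted p = 0.44). In these 3 genes, as in Scd1, both aged livers lay above all 3 young livers, as in 11.3% of all tested genes. The 3 did not pass the threshold. Young liver 2, low in hepatocyte genes generally, was the lowest library in each, so its place adds little. Fitm1, which takes part in forming lipid droplets, rose: it was at 18.6 and 64.4 in aged livers 1 and 3, against 5.94, 1.32 and 5.49 in young livers 1, 2 and 3 (log2 difference 2.42, SE 0.54, adjusted p = 0.017). The rest of the 15 tested genes of lipid droplets and fatty acid uptake were not called, and their median was -0.13. The threshold was missed, with 1 liver fewer, by Fitm1 (adjusted p 0.59 without aged liver 3, 0.070 without young liver 1 and 0.050 without young liver 3).

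Fat burning, cholesterol synthesis and glucose handling showed no called gene in 4 livers by limma. An unadjusted p under 0.05 was reached by 2 of 28 genes of fatty acid oxidation, 1 of 23 of cholesterol synthesis and 2 of 18 of glucose metabolism, and voom called 0, 0 and 1 of them. The 28 genes of fatty acid oxidation and ketogenesis had a median log2 difference of -0.12, and Cpt1a, the gate of fatty acids into mitochondria, was at 190.3 and 271 in aged livers 1 and 3, against 186, 66.01 and 166 in young livers 1, 2 and 3 (adjusted p = 0.83, limma). The 23 genes of cholesterol synthesis had a median of -0.078. Insig2, which holds the sterol sensor SCAP in the endoplasmic reticulum, a gene outside this list, fell: it was at 68.7 and 55.9 in aged livers 1 and 3, against 187, 74.6 and 162 in young livers 1, 2 and 3 (log2 difference -1.48, SE 0.29, adjusted p = 0.0039). The 18 genes of glucose metabolism had a median of 0.18. Pck1, the first committed enzyme of gluconeogenesis, varied more within the groups than between them, at 548 and 2749 in aged livers 1 and 3, against 912, 736 and 1868 in young livers 1, 2 and 3 (adjusted p = 1). Pklr, the liver pyruvate kinase, was at 164 and 286 in aged livers 1 and 3, against 95.1, 29.7 and 108 in young livers 1, 2 and 3; it had an adjusted p of 0.090 in 4 livers and 0.024 with the rescaled library. In fits with 1 liver fewer, the call did not hold for Insig2 (adjusted p 0.058 without young liver 1).

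Of 28 tested genes of the urea cycle and amino acid breakdown 1 was called, where 0.543% of all tested genes fell. The median log2 difference was -0.17. Cth, the cystathionine gamma-lyase that makes cysteine, fell: it was at 105 and 166 in aged livers 1 and 3, against 253, 110.2 and 385 in young livers 1, 2 and 3, with 325 in rescaled young liver 2 (log2 difference -1.24, SE 0.30, adjusted p = 0.032, limma). Acmsd, which turns a tryptophan breakdown product away from NAD synthesis, was at 10.8 and 14.2 in aged livers 1 and 3, against 69.8, 5.94 and 73.4 in young livers 1, 2 and 3 (log2 difference -2.44, SE 0.37, adjusted p = 1.0e-04). Young liver 2 did not sit with the other young livers in Acmsd: it was the lowest of the 5 as deposited and reached 17.5 after rescaling, where the adjusted p was 0.093. Chka, the choline kinase at the head of phosphatidylcholine synthesis, was at 51.99 and 29.4 in aged livers 1 and 3, against 146, 53.5 and 114 in young livers 1, 2 and 3 (log2 difference -1.69, SE 0.32, adjusted p = 0.0021). Ndrg1, a gene induced by hypoxia and differentiation, was at 39.2 and 14.2 in the aged livers against 98.1, 23.8 and 93.3 in the young livers (log2 difference -1.97, SE 0.39, adjusted p = 0.010, limma). Leaving out 1 further liver ended the call of Cth (adjusted p 0.26 without aged liver 1 and 0.34 without young liver 3) and Ndrg1 (adjusted p 0.058 without aged liver 3 and 0.082 without young liver 1).

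In the growth hormone and IGF axis, 2 of 16 tested genes fell and none rose, where 0.543% of all tested genes fell and 0.433% rose, with a median log2 difference of -0.39. Egfr, the receptor of epidermal growth factor and a growth hormone target in liver, was at 24.5 and 28.4 in aged livers 1 and 3, against 68.4, 42.9 and 122 in young livers 1, 2 and 3 (log2 difference -1.75, SE 0.34, adjusted p = 0.0028, limma). Igfbp2, a circulating binding protein of IGFs, was at 541 and 594 in aged livers 1 and 3, against 1319.7, 455 and 1665 in young livers 1, 2 and 3, with 1342 in rescaled young liver 2 (log2 difference -1.39, SE 0.27, adjusted p = 0.0024). Igf1, the growth factor that the liver releases under growth hormone, was at 164 and 141 in aged livers 1 and 3, against 266, 98.3 and 277 in young livers 1, 2 and 3; its adjusted p was 0.27 in 4 livers and 0.029 with the rescaled library at 289.8. Summed over its transcripts, the log2 difference of Igf1 was 0.28 with an adjusted p of 0.90. Lifr, the receptor of leukaemia inhibitory factor, not in the list, fell and was at 139 and 122 in aged livers 1 and 3, against 349, 146 and 423 in young livers 1, 2 and 3 (log2 difference -1.55, SE 0.28, adjusted p = 0.0011). Aged livers lay below every young liver in Egfr and Lifr, as in 7.6% of all tested genes. In Igfbp2 and Igf1 young liver 2 as deposited was the lowest library. The call of Egfr (adjusted p 0.14 without young liver 3) and Igfbp2 (adjusted p 0.085 without young liver 3) ended with 1 further liver left out.

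A further 5 genes that fell form no common group. Cdh1, the gene of E-cadherin, which joins hepatocytes around the portal vein, was at 8.83 and 6.63 in aged livers 1 and 3, against 96.6, 40.9 and 43.9 in young livers 1, 2 and 3 (log2 difference -2.94, SE 0.43, adjusted p = 6.1e-05, limma). Lung expresses Cdh1, and a lung part computed from the 6 lung genes came to 11.7% of its value in young liver 1. Hspb1, a small heat shock protein, was at 22.1 and 17.5 in aged livers 1 and 3, against 65.4, 30.03 and 74.1 in young livers 1, 2 and 3 (log2 difference -1.77, SE 0.35, adjusted p = 0.0034), with a computed lung part of 10.7% in young liver 1. These 2 were the only genes called lower for which that part exceeded 5%, and in both young liver 3 was also above the aged livers. Tubb2b, a beta-tubulin, was at 18.3 and 8.21 in aged livers 1 and 3, against 64.2, 49.8 and 53.3 in young livers 1, 2 and 3 (log2 difference -2.16, SE 0.41, adjusted p = 0.0021). Ptgds, the prostaglandin D2 synthase, was at 1.96 and 3.79 in the aged livers against 32.7, 3.96 and 17.8 in the young livers (log2 difference -2.75, SE 0.60, adjusted p = 0.011, limma). Slc36a3 (NM_172258), of a family of amino acid transporters, was listed at 1282 and 1325 in the aged livers against 12226, 6175 and 13067 in the young livers (log2 difference -3.28, SE 0.25, adjusted p = 2.4e-10). Whether reads counted at so high a level belong to Slc36a3 was not tested. Its mean level was 34.3 or less in each of the other 10 tissues. With 1 more liver left out, the threshold was missed by Ptgds (adjusted p 0.38 without young liver 1).

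In bulk liver, a change in the number of cells of a type and in RNA per cell cannot be told apart, which holds for every cell type described from here on. Kupffer cell markers summed to 6279.7 and 2572 in aged livers 1 and 3, against 2311, 1215 and 2067 in young livers 1, 2 and 3. Aged liver 1 was above every other library, while aged liver 3 was near young livers 1 and 3. The share of all tested genes called higher was 0.433%. Of 25 tested markers 21 had a log2 difference above 0, and the median was 1.04. An unadjusted p under 0.05 by limma was reached by 13, where 8.29% of all tested genes reached it. Voom called 1 of the markers, and 1 was called by limma. This was Mpeg1, the gene of the pore-forming protein perforin-2, at 185 and 89.99 in aged livers 1 and 3, against 40.1, 54.8 and 57.6 in young livers 1, 2 and 3 (log2 difference 1.41, SE 0.34, adjusted p = 0.038, limma). Clec4f, the lectin that marks Kupffer cells, was at 531 and 245 in aged livers 1 and 3, against 319.5, 84.5 and 273 in young livers 1, 2 and 3 (adjusted p = 0.91), with aged liver 3 below young livers 1 and 3. Vsig4, the complement receptor of resident macrophages, was at 169.7 and 60.6 in the aged livers against 44.6, 16.5 and 27.4 in the young livers (adjusted p = 0.28). Cd5l, an apoptosis inhibitor secreted by macrophages, was at 526 and 329.6 in aged livers 1 and 3, against 186, 54.8 and 200.3 in young livers 1, 2 and 3, with an adjusted p of 0.054 in 4 livers and 0.0097 with the rescaled library. The scavenger receptor Marco was at 37.3 and 9.47 in the aged livers against 17.8, 8.58 and 28.8 in the young livers (adjusted p = 0.96). Timd4, which marks embryo-derived Kupffer cells, was at 9.81 and 9.47 in the aged livers against 10.4, 5.94 and 12.3 in the young livers (adjusted p = 0.96). In Marco and Timd4 the aged and young values overlapped. The threshold was missed, with 1 liver fewer, by Mpeg1 (adjusted p 0.50 without aged liver 1 and 0.32 without young liver 1).

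Among the called genes, 6 further ones that rose are known from phagocytes or dendritic cells; they were picked after their values were seen. In the list of monocyte and lipid-associated macrophage genes none of 14 tested was called, 9 were above 0 and 5 below, and the median log2 difference was 0.35 (unadjusted p under 0.05 in 1, called by voom in 0). Cd207, the gene of langerin, a lectin of Langerhans and dendritic cells, was at 103 and 10.4 in aged livers 1 and 3, against 0, 3.30 and 0 in young livers 1, 2 and 3 (log2 difference 5.13, SE 0.93, adjusted p = 0.0023). Young livers 1 and 3 were listed at 0, so this log2 difference depends on the pseudocount and no fold is given. Cybb, the catalytic subunit of the phagocyte NADPH oxidase, was at 88.3 and 28.4 in aged livers 1 and 3, against 7.43, 9.90 and 5.49 in young livers 1, 2 and 3 (log2 difference 2.80, SE 0.49, adjusted p = 0.0014, limma). Clec7a, the beta-glucan receptor dectin-1, was at 30.4 and 20.8 in the aged livers against 1.49, 7.92 and 6.86 in the young livers (log2 difference 2.57, SE 0.60, adjusted p = 0.025). In all 3 genes aged liver 1 was the highest library. Fcgr4, an activating IgG receptor, was at 80.4 and 36.9 in the aged livers against 11.9, 5.28 and 13.7 in the young livers (log2 difference 2.01, SE 0.41, adjusted p = 0.0053). Ly86, the partner of the receptor RP105, was at 74.6 and 22.7 in the aged livers against 7.43, 13.2 and 8.23 in the young livers (log2 difference 2.27, SE 0.50, adjusted p = 0.017, limma). Fcer1g, the signalling chain of Fc receptors, was at 121 and 50.2 in the aged livers against 29.7, 19.8 and 16.5 in the young livers (log2 difference 1.77, SE 0.41, adjusted p = 0.041). The part that the higher Kupffer marker sum of aged liver 1 has in these calls was not tested. In both aged livers each of these 6 genes exceeded each young liver, as in 11.3% of all tested genes. The calls on young livers 1 and 3 already favoured this. Aged liver 1 was above aged liver 3 in all 6. In fits with 1 liver fewer, the call did not hold for Cd207 (adjusted p 0.84 without aged liver 1, 0.79 without young liver 1 and 0.55 without young liver 3), Cybb (adjusted p 0.19 without aged liver 1), Clec7a (adjusted p 0.30 without aged liver 1 and 0.16 without young liver 1), Fcgr4 (adjusted p 0.34 without aged liver 1), Ly86 (adjusted p 0.60 without aged liver 1 and 0.12 without young liver 1) and Fcer1g (adjusted p 0.42 without aged liver 1 and 0.17 without young liver 3).

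MHC class II genes, which present antigen on macrophages, dendritic cells and B cells, were higher in the aged livers than in young livers 1 and 3. Their sum was 1421 and 1015 in aged livers 1 and 3, against 402, 1767 and 457 in young livers 1, 2 and 3. All 7 tested genes were above 0 and 4 were called, where 0.433% of all tested genes were called higher. The median log2 difference was 1.40. With young mouse 2 none was called and the median was 0.79. H2-Eb1 was at 171 and 135 in aged livers 1 and 3, against 43.1, 228 and 37.04 in young livers 1, 2 and 3 (log2 difference 1.90, SE 0.30, adjusted p = 1.7e-04 in 4 livers and 1 in 5, limma). H2-Ab1 was at 159 and 175 in the aged livers against 57.96, 300.3 and 50.8 in the young livers (log2 difference 1.604, SE 0.29, adjusted p = 0.0014). Cd74, the invariant chain, was at 834 and 543 in the aged livers against 232, 842 and 278 in the young livers (log2 difference 1.40, SE 0.28, adjusted p = 0.0044). Thymus expresses these genes, and young liver 2 lay above both aged livers in H2-Eb1, H2-Ab1 and Cd74 alike. Markers of B and plasma cells summed to 404 and 480.5 in aged livers 1 and 3, against 546, 305 and 541 in young livers 1, 2 and 3, with no call among 7 tested (unadjusted p under 0.05 in 0, called by voom in 0) and overlapping groups. Mature T and NK cell markers summed to 58.9 and 17.1 in aged livers 1 and 3, against 41.6, 323 and 16.9 in young livers 1, 2 and 3, and 4 of 19 in the table were tested, without a call. Leaving out 1 further liver ended the call of Cd74 (adjusted p 0.073 without aged liver 1 and 0.10 without young liver 1).

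Haemoglobin genes rose. Hbb-bs was at 236 and 243 in aged livers 1 and 3, against 76.8, 15.95 and 42.8 in young livers 1, 2 and 3 (log2 difference 2.04, SE 0.31, adjusted p = 7.6e-05, limma). Hba-a1 and Hba-a2 share their values, at 152 and 228 in aged livers 1 and 3, against 50.5, 26.6 and 43.9 in young livers 1, 2 and 3 (log2 difference 1.96, SE 0.30, adjusted p = 1.1e-04). Hbb-b2 and Hbb-bt share theirs as well, at 131 and 104 in the aged livers against 50.1, 12.9 and 34.3 in the young livers (log2 difference 1.47, SE 0.31, adjusted p = 0.0083). Haemoglobin transcripts come from red cell precursors and reticulocytes. Both aged livers exceeded all young livers in the haemoglobin genes, as in 11.3% of all tested genes. Alas2, the erythroid enzyme of haem synthesis, was at 12.8 and 16.1 in aged livers 1 and 3, against 19.3, 7.92 and 15.1 in young livers 1, 2 and 3 (adjusted p = 0.96), so this second erythroid marker overlapped between the groups. Summed blood markers were 907 and 927 in aged livers 1 and 3, against 302, 106 and 218 in young livers 1, 2 and 3; their part in other results was not tested. The call of Hbb-b2 (adjusted p 0.072 without aged liver 1 and 0.10 without young liver 3) ended with 1 further liver left out.

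Stellate cell and matrix genes showed no called member by limma, with all 5 livers or without young mouse 2. All 20 listed markers of quiescent stellate cells summed to 1192 and 1099 in aged livers 1 and 3, against 935, 423 and 1206 in young livers 1, 2 and 3. The 16 tested markers had a median log2 difference of 0.045 (unadjusted p under 0.05 in 1, called by voom in 0). Lrat, which stores retinol as esters, was at 7.85 and 13.3 in aged livers 1 and 3, against 7.43, 3.30 and 10.97 in young livers 1, 2 and 3 (adjusted p = 0.97, limma). Reln, an extracellular signalling protein of these cells in liver, was at 21.6 and 23.7 in the aged livers against 16.3, 7.92 and 20.6 in the young livers (adjusted p = 0.94). Dcn, the small proteoglycan decorin, was at 339 and 312 in the aged livers against 205, 118 and 291 in the young livers (adjusted p = 0.79). The 17 tested genes of activated stellate cells and matrix had a median of -0.027 (unadjusted p under 0.05 in 1, called by voom in 0). Tested or not, the 28 genes with values summed to 991 and 1015 in aged livers 1 and 3. The sums were 1369, 599 and 947 in young livers 1, 2 and 3, so the groups overlapped. The fibrillar collagen Col1a1 was at 36.9 and 27.1 in aged livers 1 and 3, against 25.1, 12.3 and 28.6 in young livers 1, 2 and 3 (adjusted p = 0.94). Col3a1, another fibrillar collagen, was at 20.6 and 8.53 in the aged livers against 23.8, 12.5 and 10.97 in the young livers (adjusted p = 0.96). Acta2, the smooth muscle actin of activated stellate cells, was at 6.87 and 8.53 in the aged livers against 7.43, 5.94 and 8.23 in the young livers (adjusted p = 1). The other 11 of 28 matrix genes in the table were too low to be tested. None of 19 sinusoidal endothelial markers was called, with a median of 0.14 (unadjusted p under 0.05 in 0, called by voom in 0).

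Targets of type I interferon, an antiviral cytokine whose response in choroid plexus is the subject of the study's title, showed no call among 23 tested genes in liver. Their median log2 difference was 0.14 (0.21 with young mouse 2), and 15 of the 23 were above 0 (unadjusted p under 0.05 in 3, called by voom in 0). Irf7, the factor that amplifies the response, was at 158 and 89.04 in aged livers 1 and 3, against 63.9, 43.6 and 69.96 in young livers 1, 2 and 3 (adjusted p = 0.41, limma). Irf7 was higher in both aged livers than in each young liver and did not pass the threshold. Ifi27l2b, named for its homology to an interferon-induced gene and not in the list, rose: it was at 38.3 and 26.5 in aged livers 1 and 3, against 2.97, 1.32 and 5.49 in young livers 1, 2 and 3 (log2 difference 2.70, SE 0.53, adjusted p = 0.0034). The summed level of the list was 2043 and 1572 in aged livers 1 and 3, against 1787, 1117 and 1742 in young livers 1, 2 and 3. With 1 more liver left out, the threshold was missed by Ifi27l2b (adjusted p 0.10 without aged liver 1).

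Clock-related genes differed strongly between the 2 aged livers. The sum of the 21 clock genes was 371 and 916 in aged livers 1 and 3, against 346, 324 and 362 in young livers 1, 2 and 3; aged liver 3 stood far above the other 4. Noct, a rhythmic gene whose protein acts on NADP(H), was at 25.5 and 74.8 in aged livers 1 and 3, against 2.97, 7.26 and 10.97 in young livers 1, 2 and 3 (log2 difference 2.70, SE 0.60, adjusted p = 0.041, limma), and Klf10, a rhythmic zinc finger factor, was at 24.5 and 38.9 in aged livers 1 and 3, against 7.88, 13.3 and 4.12 in young livers 1, 2 and 3 (log2 difference 2.25, SE 0.51, adjusted p = 0.018). Neither belongs to the list. Of the list's 16 tested genes none was called by limma or voom, and the median was 0.19. An unadjusted p under 0.05 by limma was reached by 8 of the 16, where 8.29% of all tested genes reached it. Nr1d1, the repressor REV-ERB-alpha, was at 80.4 and 207 in aged livers 1 and 3, against 26.8, 27.7 and 46.6 in young livers 1, 2 and 3 (adjusted p = 0.078). Dbp, an output factor of the clock, was at 8.83 and 124 in aged livers 1 and 3, against 1.49, 10.6 and 4.12 in young livers 1, 2 and 3 (adjusted p = 0.73), with aged liver 1 between the young values. The time of day of dissection is not given in the sources used here. Genes of senescence and cell cycle arrest held no call among 9 tested (unadjusted p under 0.05 in 1, called by voom in 0), with a median of 0.32; Cdkn1a, the cell cycle inhibitor p21, was at 20.6 and 38.8 in the aged livers against 32.7, 30.4 and 49.4 in the young livers (adjusted p = 0.83). The threshold was missed, with 1 liver fewer, by Noct (adjusted p 0.24 without aged liver 3 and 0.15 without young liver 1) and Klf10 (adjusted p 0.26 without aged liver 3 and 0.051 without young liver 3).

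Several called genes belonged to none of the lists. Among those that rose were the Raet1 genes, which encode ligands of the NK cell receptor NKG2D and are near-identical copies: Raet1c was at 19.1 and 45.9 in aged livers 1 and 3, against 4.46, 1.32 and 6.17 in young livers 1, 2 and 3 (log2 difference 2.30, SE 0.53, adjusted p = 0.021, limma), and Raet1a, Raet1d and NM_009017 had identical values to each other. Pltp, the plasma phospholipid transfer protein, was at 277 and 260.5 in aged livers 1 and 3, against 150.1, 78.5 and 83.7 in young livers 1, 2 and 3 (log2 difference 1.25, SE 0.30, adjusted p = 0.027). Both aged livers were above all young livers in these genes, as in 11.3% of all tested genes. Serpinb1a, an inhibitor of neutrophil elastase, was at 50.03 and 111 in the aged livers against 17.8, 31.02 and 19.2 in the young livers (log2 difference 1.96, SE 0.38, adjusted p = 0.0029). Rcan2, an inhibitor of calcineurin, was at 24.5 and 36.00 in the aged livers against 7.43, 5.94 and 6.86 in the young livers (log2 difference 1.92, SE 0.49, adjusted p = 0.044). Lgals1, the gene of galectin-1, was at 112 and 93.8 in aged livers 1 and 3, against 35.7, 148 and 23.3 in young livers 1, 2 and 3 (log2 difference 1.79, SE 0.33, adjusted p = 0.0012), and young liver 2, with its thymus transcripts, was the highest library. The remaining genes that rose were Hcls1, Hcn3, Plekhb1, Snx10 and Tmem86a, with log2 differences from 1.35 to 2.00. In fits with 1 liver fewer, the call did not hold for Raet1c (adjusted p 0.51 without aged liver 3), Pltp (adjusted p 0.43 without young liver 3), Serpinb1a (adjusted p 0.21 without aged liver 3) and Rcan2 (adjusted p 0.069 without aged liver 1, 0.41 without aged liver 3, 0.055 without young liver 1 and 0.050 without young liver 3).

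Among the genes that fell and belonged to no list, Tymp, the thymidine phosphorylase, was at 23.5 and 24.6 in aged livers 1 and 3, against 84.7, 27.7 and 68.6 in young livers 1, 2 and 3 (log2 difference -1.62, SE 0.34, adjusted p = 0.0060, limma). Eif4ebp3, which binds the cap-binding factor eIF4E and holds back translation, was at 33.4 and 44.5 in aged livers 1 and 3, against 89.2, 58.1 and 143 in young livers 1, 2 and 3 (log2 difference -1.53, SE 0.32, adjusted p = 0.0073). Clpx, the unfoldase of a mitochondrial protease, was at 102 and 43.6 in the aged livers against 202, 83.8 and 188 in the young livers (log2 difference -1.53, SE 0.34, adjusted p = 0.025). Young liver 2 as deposited lay between the aged livers in Clpx and above both in Tymp and Eif4ebp3. The others were 9030619P08Rik, Keg1, Pnrc1, Prxl2c and Tubb2a, with log2 differences from -1.72 to -1.27. Leaving out 1 further liver ended the call of Tymp (adjusted p 0.13 without young liver 1), Eif4ebp3 (adjusted p 0.16 without young liver 3) and Clpx (adjusted p 0.23 without aged liver 3, 0.17 without young liver 1 and 0.062 without young liver 3).

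**Figure D4:**
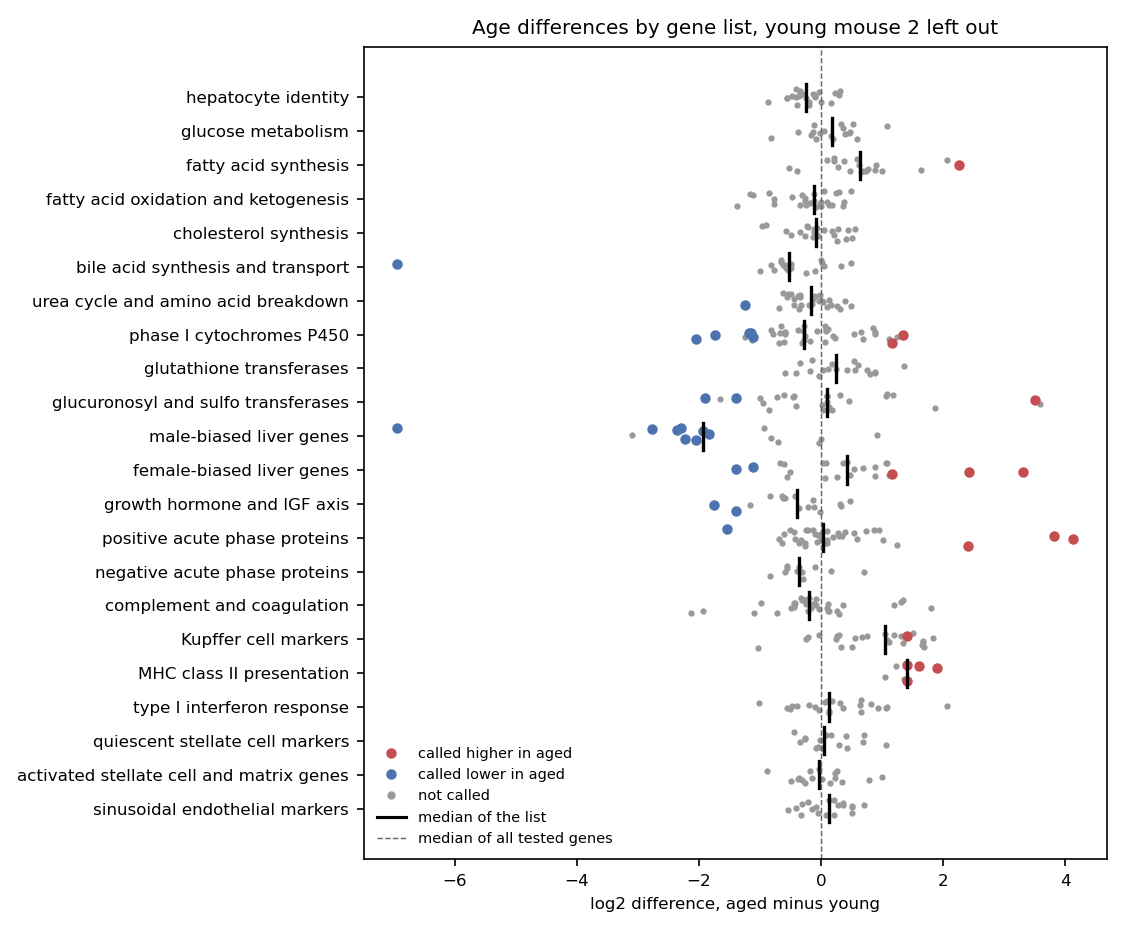
Log2 difference of aged minus young liver without young mouse 2 for every tested gene of 22 lists (points), with the median of each list (black bar) and of all tested genes (dashed line). Male-biased genes have a median of -1.93, MHC class II genes of 1.40 and Kupffer cell markers of 1.04; several lists have no coloured point.

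Genes of the zones of the liver lobule were described from the same fit. The 15 tested pericentral genes, active around the central vein, had 14 log2 differences below 0 and a median of -0.63, with 1 call, Cyp1a2. The 15 tested periportal genes had a median of -0.032, with 1 call, Cdh1. Against these medians, the median over all tested genes was -0.0021, and 0.543% of all tested genes were called lower.

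In the fit of 5 livers, genes with the smallest p beyond Saa2 and Slco1a1 did not pass the threshold. On the higher side these were Saa1, Sult2a3, Hba-a1, Hba-a2, Ifi27l2b, Hao2, Cybb, Sult2a7 and Rgs16, with adjusted p between 0.075 and 0.36. Rgs16, a regulator of G-protein signalling, was at 178 and 665 in aged livers 1 and 3, against 14.9, 11.2 and 57.6 in young livers 1, 2 and 3. On the lower side they were Cdh1, Mup9, Tubb2b, Mup11, Mup18, Slc36a3, Serpina4-ps1, Abtb2 and Cdk20, with adjusted p between 0.19 and 0.55. Abtb2, an ankyrin and BTB domain protein, was at 11.8 and 9.47 in aged livers 1 and 3, against 32.7, 31.02 and 38.4 in young livers 1, 2 and 3. Cdk20, a cell cycle kinase, was at 1.96 and 2.84 in aged livers 1 and 3, against 10.4, 16.5 and 20.6 in young livers 1, 2 and 3. Without young mouse 2, mean levels in thymus were 21.6 for Cdk20, 26.7 for Abtb2 and 71.8 for Tubb2b, against 8.95, 23.1 and 36.0 in liver. The other genes of the lower side had a lower mean level in thymus than in liver. The part of thymus transcripts in the young liver 2 values of Cdk20, Abtb2 and Tubb2b was not tested.

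The age differences were also set against those of the other 10 tissues, in 1 fit of all tissues with a term for each mouse. Every library of young mouse 2 was left out. The other tissues include libraries of aged mouse 2, whose liver was not analysed. For 28 genes of 9936 (0.282%) the age difference was higher in liver than the mean of the other tissues, and for 23 genes (0.231%) it was lower; 22 of these 51 were among the 97 genes called in liver. The largest difference belonged to Slco1a1, at -6.95 (SE 0.33, adjusted p = 1.2e-19) by limma (log2 age difference in liver minus the mean over the other tissues). Serpina4-ps1 was at -4.25 (SE 0.42, adjusted p = 4.3e-09). Hsd3b5 was at -3.06 (SE 0.40, adjusted p = 4.7e-06). Cdh1 was at -3.06 (SE 0.75, adjusted p = 0.045), with log2 age differences of 2.86 in cervical lymph nodes and -0.59 in lung. Loxl4, a lysyl oxidase, was at -2.70 (SE 0.56, adjusted p = 0.0082); its liver values were 3.92 and 0.947 in the aged livers against 20.8, 3.96 and 13.7 in the young livers. On the higher side, Cd207 was at 5.74 (SE 0.72, adjusted p = 1.3e-06), Saa2 at 4.26 (SE 0.51, adjusted p = 7.0e-07) and Sult2a3 at 3.50 (SE 0.43, adjusted p = 9.5e-07). Sult2a7 was at 3.41 (SE 0.53, adjusted p = 1.2e-04). The mean level of Slco1a1, Serpina4-ps1, Hsd3b5, Sult2a3 and Sult2a7 was at most 0.529 in every other tissue, so no age difference could be seen there and their contrast rests on liver. The fit gives each gene a single spread over all tissues, and tissues with values near 0 make that spread small. The SE and adjusted p of these genes here therefore rest only in part on the spread between livers. Hsd3b5 and Sult2a7 were not called within liver. Saa1 was at 3.57 (SE 0.71, adjusted p = 0.0059); its mean level was 716 in liver and 674 in colon, where its log2 age difference was 0.053. Saa3 did not pass (adjusted p = 0.95): it had log2 age differences of 4.09 in inguinal and 2.38 in cervical lymph nodes, beside 2.41 in liver. The cervical lymph node values of Cdh1 and Saa3 rest on 1 young library, that of young mouse 3. Scd1 (adjusted p = 0.56) and A1bg (adjusted p = 0.11) did not pass either. With 1 further liver library left out, which left 1 liver of that age, Cdh1, Loxl4 and Saa1 did not keep the call in every such fit. The other tissues of that mouse stayed in these fits.

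**Figure D5:**
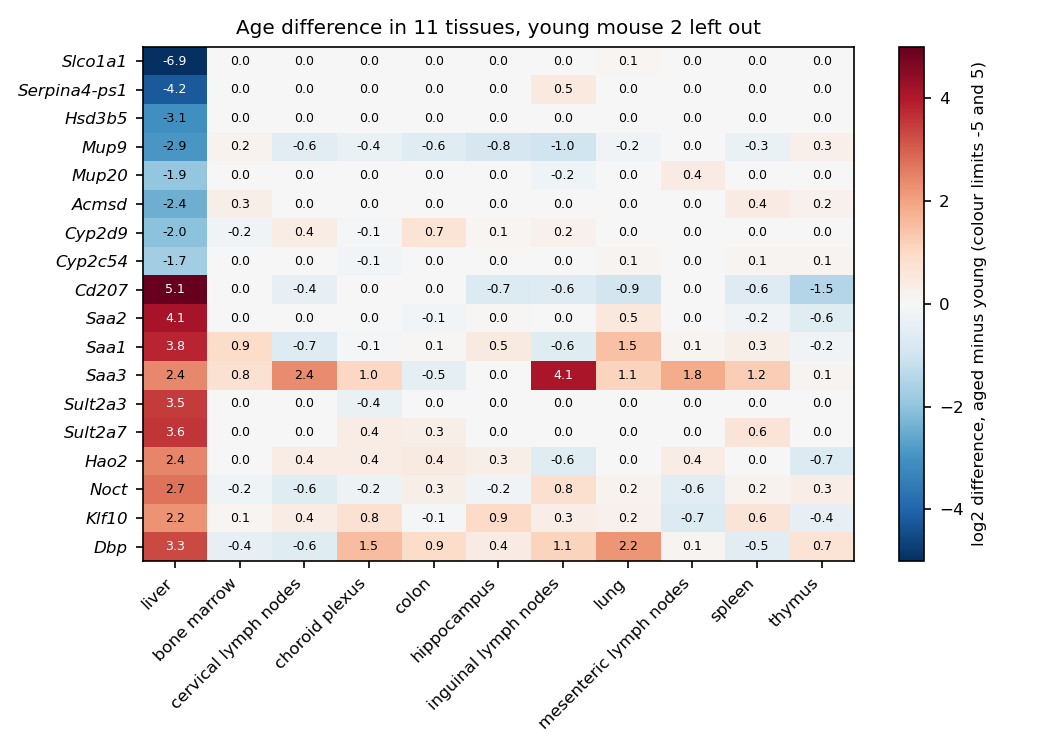
Log2 difference of aged minus young mice in 11 tissues for 18 genes, without young mouse 2 (each cell is the difference of the group means of log2(value + the value worth 1 read)). Slco1a1 stands at -6.93 in liver and within 0.095 of 0 in the other tissues, and Saa3 is above 2 in liver and in cervical and inguinal lymph nodes. Cervical lymph nodes and bone marrow each have 1 young library here, that of young mouse 3.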

How the data were processed

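RNA sequencing of 63 tissue libraries was analysed, 5 of them from liver. Reads were aligned to mm9 with TopHat, per the submitters' processing notes, whose version the sources used here do not state. The deposited values are a signal that the authors made from weighted reads per RefSeq transcript, scaled per library; 78.7% to 80.2% of the liver values were whole multiples (tolerance 0.001) of the most frequent value, taken as 1 read, so read counts were not recovered and count models were not the main test. The table also has 1 column that matches no listed sample, which was not used.

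Each gene was represented by its transcript with the highest mean, which gave 20680 genes from 25865 transcripts. Genes with at least 5 reads in 2 liver libraries were tested on log2(value + 0.981), 0.981 being the median value of 1 read. The test was limma 3.58.1 (trend and robust) in R 4.3.3 with Benjamini-Hochberg adjustment over all tested genes. With the rescaled library the adjustment was over its 928 genes only, so its adjusted p are not on the same footing as those of the other fits. An exact permutation test of 2 against 3 libraries cannot go below p = 0.1. For the 2 against 2 libraries without young mouse 2, from which most results come, its lowest possible p is higher still. P-values rest on the spread between mice, and limma takes part of each gene's spread from other tested genes of similar level. In the contrast with other tissues, the spread of a gene is shared by all tissues and is not that of liver alone. Without a mean-variance trend, 0 genes were called higher and 1 lower in the fit without young mouse 2. The fits were tested on simulated data. Depth sets the precision of low values.

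Gene lists and members were chosen with earlier results of these data known, so no list gives independent support. The genes named were, by rule, those with the largest change among called genes whose groups did not overlap (15 per direction with 5 libraries and 10 without young mouse 2, or the 10 with the smallest p), list members with the smallest p or called, a fixed set of liver genes, and 5 per direction in the contrast with other tissues. The remaining called genes were added after their values were seen, and some genes of the rule are not reported here. The replicate numbers mark different mice in the aged and young groups and were not used as pairs. Alternatives were scaling, trend, filter, pseudocount, voom, summed transcripts, a fit of all tissues, and leaving out each library.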

Additional observations from a re-analysis of the deposited data

Results flagged for a closer look

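For 26 genes described above, the age difference in liver differed from the mean of the other 10 tissues by limma's test of that difference (adjusted p under 0.05, log2 age difference in liver minus other tissues). The values were negative, lower in aged liver relative to the other tissues, for Slco1a1 at -6.95, Serpina4-ps1 at -4.25, Cdh1 at -3.06, Hsd3b5 at -3.06, Loxl4 at -2.70, Mup9 at -2.56, Acmsd at -2.53, Tubb2b at -2.25, Cyp2d9 at -2.20, Ndrg1 at -2.18, C8b at -2.03, Mup20 at -1.97, Cyp2c54 at -1.75 and Chka at -1.600. The mean level of Slco1a1, Serpina4-ps1, Hsd3b5, C8b, Mup20, Cyp2c54, Sult2a3, Sult2a7 and Fitm1 was at most 0.842 in every other tissue, so their contrast rests on liver, whereas that of Cdh1 was 387 in colon and 153 in lung.

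The values were positive for Cd207 at 5.74, Saa2 at 4.26, Saa1 at 3.57, Sult2a3 at 3.50, Sult2a7 at 3.41, Ifi27l2b at 2.77, Noct at 2.70, Dbp at 2.69, Fitm1 at 2.40, Hao2 at 2.27, Klf10 at 2.11 and Ly86 at 1.80. C8b, Dbp, Hsd3b5, Loxl4 and Sult2a7 differed here although none of these 5 was called within liver. The contrast uses a single spread per gene over all tissues, so it does not stand in for a call within liver. Dbp rested on aged liver 3, and Cd207 and Ly86 were higher in aged liver 1 than in aged liver 3.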

How the results depend on the processing

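All 97 genes called without young mouse 2 kept their direction with it, in a fit that holds the same 4 livers, so this is no independent check. With all 5 livers, genes called higher and lower (1 and 1) numbered 3 and 23 after quantile normalization, 2 and 1 with TMM scaling, 0 and 0 without a trend, 6 and 18 with voom, 0 and 1 without a filter, with the smallest value as pseudocount or with transcripts summed, 17 and 13 when all tissues were fitted together, and 25 and 62 on rescaled genes. Leaving out 1 library gave 0 to 43 higher and 1 to 54 lower, the highest without young mouse 2; without young mouse 3 there were 4 and 2. Without young mouse 2, the counts (43 and 54) became 0 and 1 without a trend, 0 and 0 without a filter (824 genes had an unadjusted p under 0.05), 3 and 6 with the smallest pseudocount, 49 and 35 in the fit of all tissues, and 26 and 44 with transcripts summed. Leaving out 1 library gave 43 to 103 higher and 47 to 79 lower: 69 higher without aged mouse 1, 103 without aged mouse 3 and 79 without young mouse 3. Among 5444 genes lower in lung than in liver, an alternative chosen after seeing the data, they were 31 and 57. The counts against other tissues (28 and 23) were 12 and 8 with young mouse 2, 49 and 79 with a pseudocount 4 times as high, 81 and 92 after quantile normalization, 28 and 36 without a trend, and 13 to 62 and 18 to 37 with 1 library left out: 13 higher without aged mouse 1, 62 without young mouse 1, and 50 and 37 without young mouse 3. The cause of these shifts was not tested.

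A replicate block gave 127 and 99 with 5 livers and 129 and 98 without young mouse 2, and no mouse term gave 23 and 23 in the contrast. The numbers name separate mice. Without young mouse 2, the deviations of same-numbered aged and young livers correlated at 0.0811. This is 1 correlation over genes from 2 livers per age, so it cannot show whether same-numbered livers share a factor.

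Over 2083 gene values under alternatives, 1483 kept direction and side of the threshold, 497 lost the call, 77 gained one and 26 changed sign. No gene that changed sign was called without young mouse 2. With 1 liver left out, the log2 difference of Cyp7a1 reached -0.10 (without aged mouse 1), and that of Cyp2e1 ranged from -0.99 to 0.35, of Cyp2b10 from -1.52 to 0.17, of Cyp2b9 from -0.39 to 0.54, of Pck1 from -1.25 to 1.07, of Clec4f from -0.27 to 0.84, of Marco from -1.18 to 0.69, of Lrat from -0.18 to 0.51, of Col3a1 from -0.86 to 0.33 and of Acta2 from -0.17 to 0.11, with the extremes without aged mouse 1 or aged mouse 3. With young mouse 2 it was 0.084 for Cyp2e1, 0.19 for Pck1, 0.19 for Marco, 0.063 for Timd4, 0.10 for Alas2 and 0.088 for Acta2. Quantile normalization gave 0.057 for Pck1, voom 0.073 for Pck1 and 0.095 for Acta2, TMM 0.018 for Acta2, and summed transcripts 0.28 for Igf1. Depth limits the precision of genes of few reads.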
